A study of Mus musculus with 16 samples.

Results

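The 10 genes described here, Cd34, Lgr5, Lgr6, Lhx2, Sox9, Nfatc1, Tcf7l1, Tcf7l2, Foxc1 and Runx1, mark or regulate stem cells of the hair follicle bulge and of the follicle regions that adjoin it. They were taken from a list of gene names, which, like the other gene lists below, was chosen with earlier results of these data known. Each was read from the probe sets that the array's annotation assigns to that gene alone. Of 18194 genes with such a probe set, 12087 were tested, and these included all 10. They had 28 probe sets, of which 23 exceeded a log2 value of 4 in at least 2 arrays and so were kept. Among those kept, the probe set of highest mean over the 16 arrays stands for each gene below, and the others serve as a check.

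The bulge is a niche in the outer root sheath of the hair follicle, below the sebaceous gland, whose epithelial stem cells rest through most of the hair cycle. At the start of a growth phase, Wnt signals and a drop in BMP signals activate the cells of the bulge base and the hair germ beneath it, which then build the lower follicle. Transcription factors of the LIM homeobox, SOX, NFAT, TCF, forkhead and RUNX families hold these cells in place, keep them at rest or let them leave it.

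Back skin, taken whole from female mice of the inbred strain C57/B6 (C57/B7 in the titles), was profiled on Affymetrix arrays, which report a fluorescence level for each probe set. Mice aged 8.5 weeks gave a biopsy at day 0, and 7 of them a second one at day 5 from skin treated daily for 4 days. The day-5 groups were tofacitinib (3 arrays, mice 7, 8 and 9), ruxolitinib (2 arrays, mice 4 and 6) and the vehicle dimethyl sulfoxide, DMSO (2 arrays, mice 2 and 3). Day 0 had 9 arrays, from mice 1 to 9, whose skin had received none of the 3 agents. Tofacitinib and ruxolitinib are inhibitors of Janus kinases, which relay cytokine signals to STAT transcription factors. No source used here gives their doses. For mouse 7 the description of the day-5 array names ruxolitinib, whereas its title, source and treatment fields name tofacitinib, by which it was grouped. Every day-5 sample came from a mouse that was older by 5 days, had been biopsied before and had received an agent, and these differences from day 0 cannot be told apart.

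Values are log2 GCRMA values, so that 1 unit is a doubling, and levels of different genes cannot be set against each other on an array. As a guide to background, 27 control probe sets that match no transcript read 1.70 in the median and 2.43 at most. Array medians lay between 3.75 and 3.94, and the number of arrays limited the precision. The day-0 arrays of mice 1, 3, 8 and 9 stood apart from the other 5. Their adipocyte markers averaged 5.94 to 8.12 against 9.39 to 10.16, and their endothelial markers 2.54 to 3.40 against 3.82 to 4.40. The basal keratinocyte markers of these 4 arrays averaged 11.39 to 11.47 against 11.03 to 11.23 in the other 5, and their skeletal muscle markers 12.62 to 13.07 against 13.15 to 13.30. The Gapdh control probe sets, read as 3′ minus 5′ signal, differed by 0.78 to 0.98 with tofacitinib, 0.87 to 0.93 with ruxolitinib and 0.83 to 0.88 with DMSO, against 0.82 to 1.47 at day 0. Groups were compared with limma in 1 fit of the 16 arrays, in which the mouse was a random block, and a gene passed at a Benjamini-Hochberg adjusted p under 0.05 over the 12087 genes. Errors of differences are standard errors, brackets hold 95% intervals, and a p rests on the spread between these few mice.

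Against day 0, 6 of the 10 genes fell with tofacitinib, 5 with ruxolitinib and 5 with DMSO, and none rose. Lgr6, Foxc1 and Runx1 fell in all 3 day-5 groups. Cd34, Tcf7l1 and Tcf7l2 passed in none, Lhx2 passed with DMSO and not with the inhibitors, and Nfatc1 and Sox9 passed with both inhibitors and not with DMSO, which does not show that the groups differed. The tests of those differences are given with the day-5 groups. The share of all tested genes that fell was 27.4% with tofacitinib, 21.4% with ruxolitinib and 28.9% with DMSO, and 22.7%, 12.5% and 22.2% rose. Every array lay below the day-0 range for 3 of the 10 genes with tofacitinib, 3 with ruxolitinib and 5 with DMSO, as for 18.3%, 24% and 29% of all tested genes. The median log2 difference of the 10 genes was -0.62 with tofacitinib, -0.61 with ruxolitinib and -0.88 with DMSO. Over all tested genes it was -0.02, -0.03 and -0.05. The medians of the 10 include Lgr5, which was kept through its day-0 values alone. Without Lgr5 the medians were -0.56 with tofacitinib (Nfatc1), -0.78 with ruxolitinib (Sox9) and -0.59 with DMSO (Sox9), so the order of the groups depends on it. These 3 comparisons share the same 9 day-0 arrays. In whole skin, fewer cells of a type and less RNA per cell cannot be told apart.

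**Figure D1:**
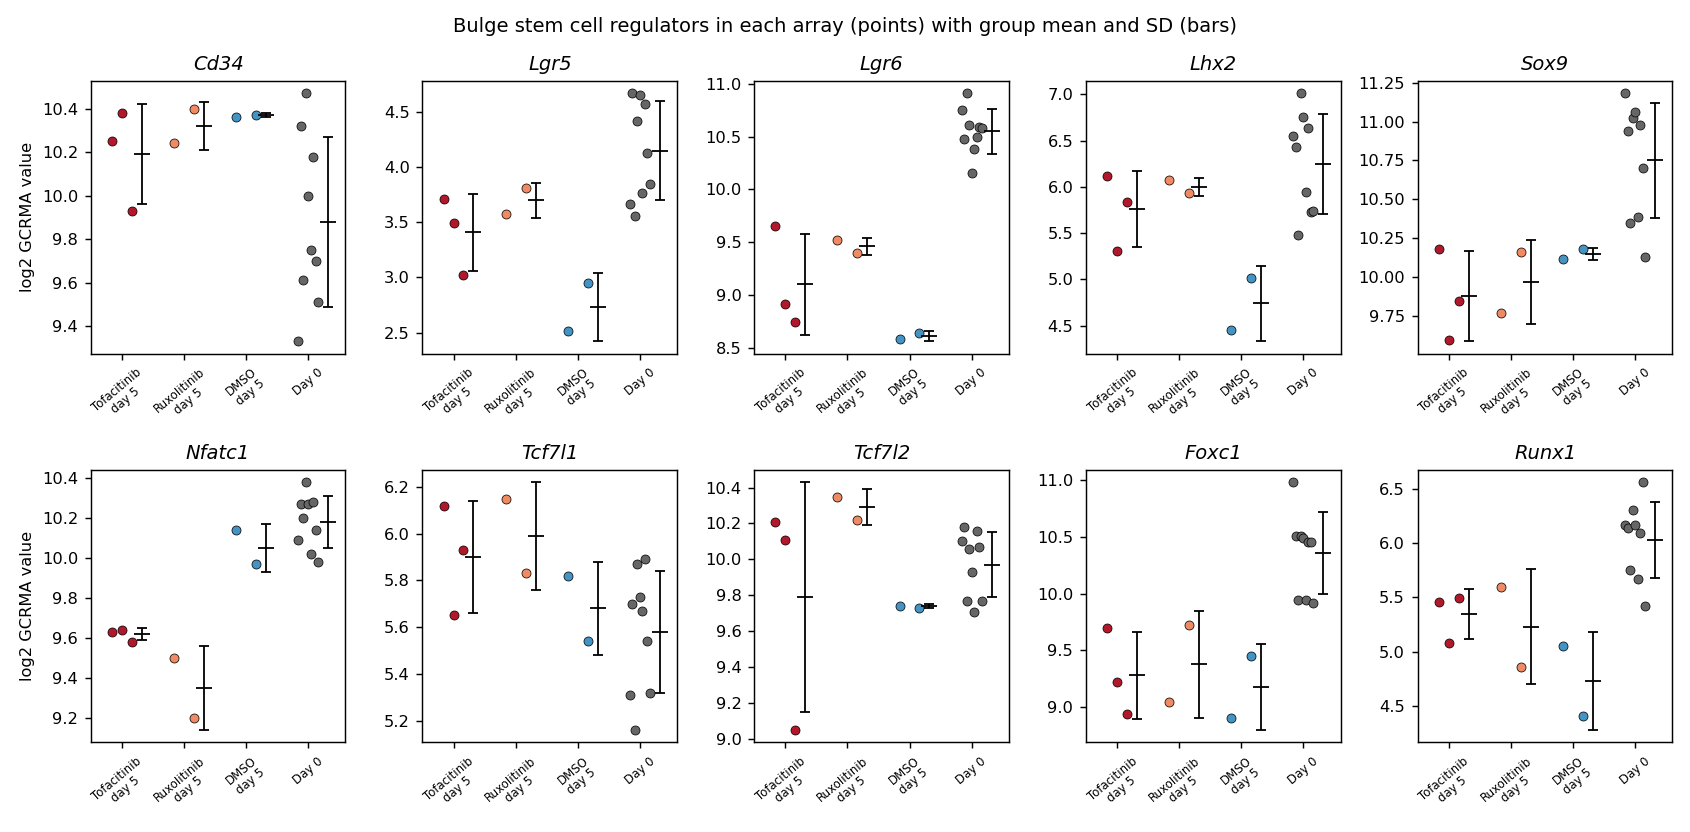
Log2 GCRMA value of each of the 10 genes in each array (points), by group, with the group mean and SD beside the points; n is 3 for tofacitinib, 2 for ruxolitinib, 2 for DMSO and 9 for day 0. Each panel has its own axis, which does not start at 0. Lgr6 and Foxc1 lie below every day-0 array in all 7 day-5 arrays, and Nfatc1 does so in the 5 inhibitor arrays, at 9.20 to 9.64 against 9.98 to 10.38 at day 0.

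Lgr6, a receptor that marks stem cells of the isthmus above the bulge (Entrez gene 329252, probe set 1436218_at), stood at 9.65, 8.91 and 8.74 in tofacitinib skin. It stood at 9.52 and 9.40 in ruxolitinib skin and at 8.58 and 8.64 in DMSO skin, against 10.16, 10.58 and 10.91 as the lowest, median and highest at day 0. No day-5 array reached the day-0 range, and both DMSO arrays lay below all 5 inhibitor arrays. Lgr6 fell by 1.45 ± 0.17 with tofacitinib (2.73-fold, adjusted p = 1.53e-05), by 1.09 ± 0.20 with ruxolitinib (2.12-fold, adjusted p = 0.000972) and by 1.96 ± 0.20 with DMSO (3.88-fold, adjusted p = 5.75e-06). Its second probe set, 1427028_at, also fell in each group (-1.54, -0.92 and -2.07 with tofacitinib, ruxolitinib and DMSO). Under a fixed mouse block the ruxolitinib difference was -1.04 and no longer passed (adjusted p = 0.0507).

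Lgr5, the R-spondin receptor of the lower bulge and hair germ (Entrez gene 14160, probe set 1450988_at), gave low values. They were 3.71, 3.49 and 3.02 with tofacitinib, 3.58 and 3.81 with ruxolitinib, and 2.51 and 2.95 with DMSO, against 3.56, 4.13 and 4.67 as the lowest, median and highest at day 0. Only 5 day-0 arrays exceeded 4 and 0 day-5 arrays did, so Lgr5 was kept through its day-0 values alone. Counts and medians that include Lgr5 lend no support. Without it, 5 of 9 genes fell with tofacitinib and 4 of 9 with DMSO. It fell by 0.74 ± 0.25 with tofacitinib (adjusted p = 0.0230), although these arrays overlapped day 0, and by 1.41 ± 0.29 with DMSO (adjusted p = 0.00131). With ruxolitinib the difference was -0.44 ± 0.29 (adjusted p = 0.251). The other kept probe set, 1444519_at, lay at 2.75 to 3.20 with tofacitinib, 2.82 to 2.95 with ruxolitinib and 2.37 to 2.69 with DMSO, against 3.35 to 4.77 at day 0, and there the ruxolitinib difference passed too (-1.06 ± 0.29, adjusted p = 0.0126). The tofacitinib call was lost under a fixed mouse block (-0.77, adjusted p = 0.0818), without tofacitinib mouse 8 (-0.78, adjusted p = 0.0564) and without tofacitinib mouse 9 (-0.54, adjusted p = 0.160).

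Cd34, a sialomucin on the surface of mouse bulge cells that endothelial and mesenchymal progenitor cells also carry (Entrez gene 12490, probe set 1416072_at, its only one), did not pass in any comparison. It stood at 10.25, 10.38 and 9.93 with tofacitinib, 10.24 and 10.40 with ruxolitinib and 10.36 and 10.37 with DMSO, against 9.33, 9.75 and 10.47 as the lowest, median and highest at day 0. The day-5 arrays lay in the upper part of the day-0 range. The differences from day 0 were 0.32 [-0.12, 0.76] with tofacitinib, 0.42 [-0.10, 0.94] with ruxolitinib and 0.48 ± 0.24 with DMSO (adjusted p = 0.209, 0.189 and 0.110). Without the day-0 array of mouse 4, the highest, the DMSO difference was 0.56 (adjusted p = 0.0491). Cd34 was lowest in the 4 day-0 arrays that stood apart (9.33 to 9.70, against 9.75 to 10.47 in the other 5). Without those 4 arrays its differences were 0.04 with tofacitinib, 0.19 with ruxolitinib and 0.20 with DMSO. Endothelial markers averaged 5.11 to 5.74 with tofacitinib, 5.15 to 5.41 with ruxolitinib and 5.34 to 5.92 with DMSO, against 2.54 to 4.40 at day 0. Of their 13 tested genes 13, 10 and 12 rose, beside 22.7%, 12.5% and 22.2% of all tested genes. Among them Pecam1, Cdh5, Kdr, Emcn and Tie1 exceeded 4 in 0 day-0 arrays. These genes were kept through day 5 alone and lend no support to the counts. The part of endothelial cells in the level of Cd34 was not tested.

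Among the transcription factors, Foxc1, a forkhead factor that keeps bulge cells at rest (Entrez gene 17300, probe set 1419485_at), stood at 9.70, 9.22 and 8.94 with tofacitinib. It stood at 9.05 and 9.72 with ruxolitinib and at 8.91 and 9.45 with DMSO, against 9.92, 10.45 and 10.98 as the lowest, median and highest at day 0. All 7 day-5 arrays were below the day-0 range, and the 3 day-5 groups overlapped. Foxc1 fell by 1.06 ± 0.23 with tofacitinib (2.09-fold, adjusted p = 0.00195), by 0.96 ± 0.27 with ruxolitinib (1.94-fold, adjusted p = 0.0146) and by 1.17 ± 0.27 with DMSO (2.24-fold, adjusted p = 0.00306). Under a fixed mouse block the DMSO difference (-1.05, adjusted p = 0.0662) and the ruxolitinib difference (-0.84, adjusted p = 0.173) no longer passed. The same held for DMSO without mouse 2 (-0.92, adjusted p = 0.0775), for ruxolitinib without mouse 4 (-0.57, adjusted p = 0.278) and for ruxolitinib in the second probe set, 1419486_at (-0.87 ± 0.34, adjusted p = 0.0632).

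Runx1, a runt-domain factor that promotes the entry of bulge cells into growth (Entrez gene 12394, probe set 1440878_at), stood at 5.46, 5.08 and 5.49 with tofacitinib. It stood at 5.60 and 4.86 with ruxolitinib and at 5.05 and 4.41 with DMSO, against 5.42, 6.14 and 6.56 as the lowest, median and highest at day 0. Both DMSO arrays were below the day-0 range, whereas the inhibitor arrays reached into its lower end. Runx1 fell by 0.68 ± 0.22 with tofacitinib (1.61-fold, adjusted p = 0.0194), by 0.80 ± 0.26 with ruxolitinib (1.74-fold, adjusted p = 0.0289) and by 1.29 ± 0.26 with DMSO (2.45-fold, adjusted p = 0.00112). Its probe sets differed. In 1422864_at it fell by 1.45 ± 0.36 with tofacitinib and 1.31 ± 0.42 with DMSO, with -0.80 ± 0.42 for ruxolitinib (adjusted p = 0.155), and in 1422865_at none of the 3 differences passed (-0.64, -0.58 and -0.48 with tofacitinib, ruxolitinib and DMSO). With a fixed block the calls with tofacitinib (-0.68, adjusted p = 0.0871) and ruxolitinib (-0.76, adjusted p = 0.183) were lost, as they were without tofacitinib mouse 8 (-0.54, adjusted p = 0.117) and without ruxolitinib mouse 6 (-0.47, adjusted p = 0.366).

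The promoter windows of the genes that fell in all 3 groups are shown because they carry letters that factors among the 10 can bind. Each runs from 250 bases before to 50 bases after an annotated RefSeq start in GRCm38.p6, 5′ to 3′ on the gene's strand, with matches in capitals. Lgr6 lies on the minus strand at chr1:135105227-135105526, Foxc1 on the plus strand at chr13:31806396-31806695, and Runx1 has starts on the minus strand at chr16:92826025-92826324 and chr16:92697280-92697579.
Lgr6: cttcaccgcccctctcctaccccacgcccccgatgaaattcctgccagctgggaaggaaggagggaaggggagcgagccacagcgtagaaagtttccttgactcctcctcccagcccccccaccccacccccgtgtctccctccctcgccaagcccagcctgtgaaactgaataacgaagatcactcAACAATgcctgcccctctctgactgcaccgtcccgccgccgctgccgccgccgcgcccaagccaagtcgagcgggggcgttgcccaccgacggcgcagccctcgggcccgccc
Foxc1: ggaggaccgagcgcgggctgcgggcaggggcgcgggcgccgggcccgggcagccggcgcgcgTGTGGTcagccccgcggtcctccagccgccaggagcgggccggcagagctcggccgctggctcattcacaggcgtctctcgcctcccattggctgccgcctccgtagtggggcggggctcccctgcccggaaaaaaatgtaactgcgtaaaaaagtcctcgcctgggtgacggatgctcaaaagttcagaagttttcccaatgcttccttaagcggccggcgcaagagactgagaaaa
Runx1, chr16:92826025-92826324: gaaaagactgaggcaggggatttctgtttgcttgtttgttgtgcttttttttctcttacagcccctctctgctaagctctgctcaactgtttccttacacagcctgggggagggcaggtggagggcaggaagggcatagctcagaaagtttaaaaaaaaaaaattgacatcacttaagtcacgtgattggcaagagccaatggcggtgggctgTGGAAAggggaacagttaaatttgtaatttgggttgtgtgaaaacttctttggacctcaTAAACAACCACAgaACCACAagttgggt
Runx1, chr16:92697280-92697579: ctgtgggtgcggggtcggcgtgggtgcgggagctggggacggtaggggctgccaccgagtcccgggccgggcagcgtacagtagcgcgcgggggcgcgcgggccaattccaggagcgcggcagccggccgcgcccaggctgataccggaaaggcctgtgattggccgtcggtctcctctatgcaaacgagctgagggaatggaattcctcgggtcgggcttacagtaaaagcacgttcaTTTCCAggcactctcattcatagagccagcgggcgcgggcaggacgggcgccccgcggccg
The letters of 7 motifs were searched on both strands in the 10 windows of the 7 members that have one. The Lgr6 window held the SOX letters AACAAT, also found in 10.7% of all 32851 windows. The Foxc1 window held the RUNX letters TGTGGT, found in 16.8% of all windows, and the upstream Runx1 window held them on the other strand at 2 places. That Runx1 window also held the FOX letters TGTTTA (13.4% of all windows), and both Runx1 windows held the NFAT letters TGGAAA (21.4% of all windows). The only other matches were SOX and FOX letters in a Tcf7l2 window, and no match overlapped another. The TCF/LEF letters CTTTGA (in 5257 of all 32851 windows), the LHX letters TAATTA (5.3%) and the STAT letters TTCNNNGAA (8.3%) were in 0 of the 10 windows, which says only that these letters are not there.

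Lhx2, a LIM homeobox factor needed to hold bulge cells in their niche (Entrez gene 16870, probe set 1418317_at, its only one), stood at 6.12, 5.31 and 5.84 with tofacitinib and 6.07 and 5.93 with ruxolitinib. It stood at 4.45 and 5.02 with DMSO, against 5.48, 6.43 and 7.01 as the lowest, median and highest at day 0. Both DMSO arrays were below all other arrays, while the inhibitor arrays lay mostly within the day-0 range. Lhx2 fell 2.80-fold with DMSO (-1.49 ± 0.34, adjusted p = 0.00278). The differences with tofacitinib (-0.47 [-1.09, 0.15], adjusted p = 0.188) and ruxolitinib (-0.27 [-1.01, 0.46], adjusted p = 0.554) did not pass. The DMSO call was lost under a fixed mouse block (-1.22, adjusted p = 0.0537) and without DMSO mouse 2 (-1.24, adjusted p = 0.0668), and without the 4 day-0 arrays that stood apart the tofacitinib difference passed (-0.79, adjusted p = 0.0214).

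Nfatc1, a calcineurin-activated factor that keeps bulge cells at rest (Entrez gene 18018, probe set 1428479_at), stood at 9.63, 9.64 and 9.58 with tofacitinib and 9.50 and 9.20 with ruxolitinib. It stood at 10.14 and 9.97 with DMSO, against 9.98, 10.20 and 10.38 as the lowest, median and highest at day 0. All 5 inhibitor arrays were below every DMSO and day-0 array, and of the DMSO arrays 1 lay just below the day-0 range and 1 within it. Nfatc1 fell by 0.56 ± 0.10 with tofacitinib (1.47-fold, adjusted p = 0.000555) and by 0.84 ± 0.12 with ruxolitinib (1.78-fold, adjusted p = 0.000155), and differed by -0.14 ± 0.12 with DMSO (adjusted p = 0.359). Both inhibitor differences also passed in each of the other 3 kept probe sets, as they did when the mouse was a fixed block (adjusted p = 0.0231 and 0.0236 for tofacitinib and ruxolitinib). The DMSO difference was larger in probe set 1417621_at, where it passed (-0.89 ± 0.27, adjusted p = 0.0139) beside -1.41 ± 0.23 with tofacitinib and -1.33 ± 0.27 with ruxolitinib.

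Sox9, an HMG-box factor that maintains the bulge (Entrez gene 20682, probe set 1451538_at), stood at 10.18, 9.60 and 9.85 with tofacitinib and 9.77 and 10.16 with ruxolitinib. It stood at 10.12 and 10.18 with DMSO, against 10.13, 10.94 and 11.18 as the lowest, median and highest at day 0. The day-5 values overlapped the low end of day 0, where the arrays of mice 3, 6 and 9 lay (10.35, 10.39 and 10.13). Sox9 fell by 0.86 ± 0.21 with tofacitinib (1.81-fold, adjusted p = 0.00403) and by 0.78 ± 0.25 with ruxolitinib (1.71-fold, adjusted p = 0.0249), and the DMSO difference was -0.59 ± 0.25 (adjusted p = 0.0589). In the other kept probe set, 1424950_at, none of the 3 passed (-0.61, -0.36 and -0.16 with tofacitinib, ruxolitinib and DMSO). With a fixed block both calls were lost (-0.72, adjusted p = 0.0611, with tofacitinib and -0.73, adjusted p = 0.171, with ruxolitinib). The ruxolitinib call was lost without mouse 4 (-0.53, adjusted p = 0.281) or mouse 6 (-1.02, adjusted p = 0.0513), and the DMSO difference passed without the day-0 array of mouse 3, 6 or 9 (-0.65, -0.62 and -0.65).

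The TCF factors bind DNA at Wnt target genes, and in the bulge Tcf7l1 acts mainly as a repressor. Tcf7l1 (Entrez gene 21415, probe set 1436207_at) stood at 6.12, 5.65 and 5.93 with tofacitinib, 6.15 and 5.83 with ruxolitinib and 5.82 and 5.54 with DMSO, against 5.16, 5.67 and 5.89 as the lowest, median and highest at day 0. Each day-5 group overlapped day 0. Both ruxolitinib arrays lay above both DMSO arrays, as for 25.4% of all tested genes. The differences from day 0 were 0.32 [-0.02, 0.66], 0.39 [-0.01, 0.79] and 0.12 [-0.28, 0.52] with tofacitinib, ruxolitinib and DMSO. The tofacitinib difference passed in the second probe set, 1450117_at (0.70 ± 0.23, adjusted p = 0.0197), and after quantile normalization (0.41, adjusted p = 0.0405) or centring on array medians (0.39, adjusted p = 0.0472). Tcf7l1, like Cd34, was lowest in the 4 day-0 arrays that stood apart (5.16 to 5.54, against 5.67 to 5.89 in the other 5), and without them the differences were 0.14, 0.23 and -0.06.

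Tcf7l2 (Entrez gene 21416, probe set 1429428_at) stood at 10.21, 10.11 and 9.05 with tofacitinib, 10.35 and 10.22 with ruxolitinib and 9.74 and 9.73 with DMSO, against 9.71, 10.06 and 10.18 as the lowest, median and highest at day 0. Both ruxolitinib arrays were above every day-0 array, which held for 17.1% of all tested genes. The tofacitinib array of mouse 9 was the lowest of the 16. The differences of -0.19 ± 0.19, 0.32 ± 0.22 and -0.23 ± 0.22 with tofacitinib, ruxolitinib and DMSO did not pass. The other 3 probe sets disagreed. None of the differences passed in 1429427_s_at (0.25, 0.22 and -0.04), while 1425229_a_at fell by 0.73 ± 0.22 with DMSO (adjusted p = 0.0123) and 1426639_a_at by 0.82 ± 0.28 with tofacitinib (adjusted p = 0.0258).

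**Figure D2:**
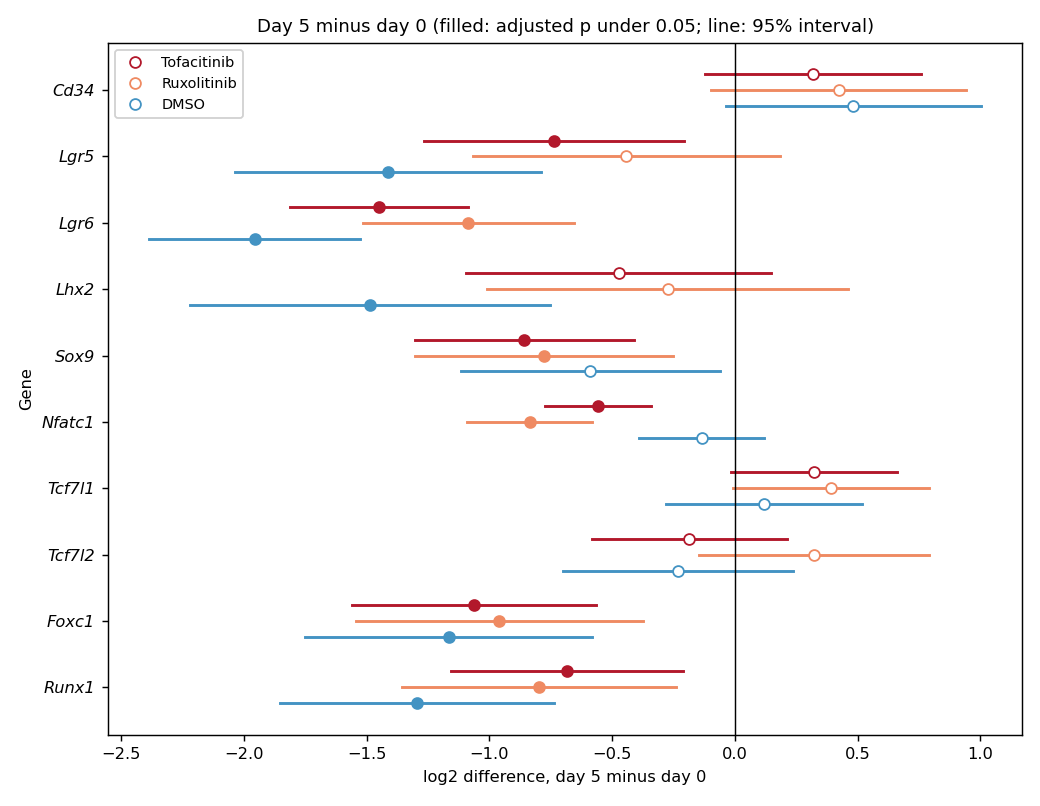
Log2 difference from day 0 of each of the 10 genes with tofacitinib, ruxolitinib and DMSO, with 95% intervals from the limma fit; filled points passed at an adjusted p under 0.05. Lgr6 lies furthest below 0 in each group, at -1.45, -1.09 and -1.96, and Nfatc1 is filled for both inhibitors and open for DMSO.

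**Figure D3:**
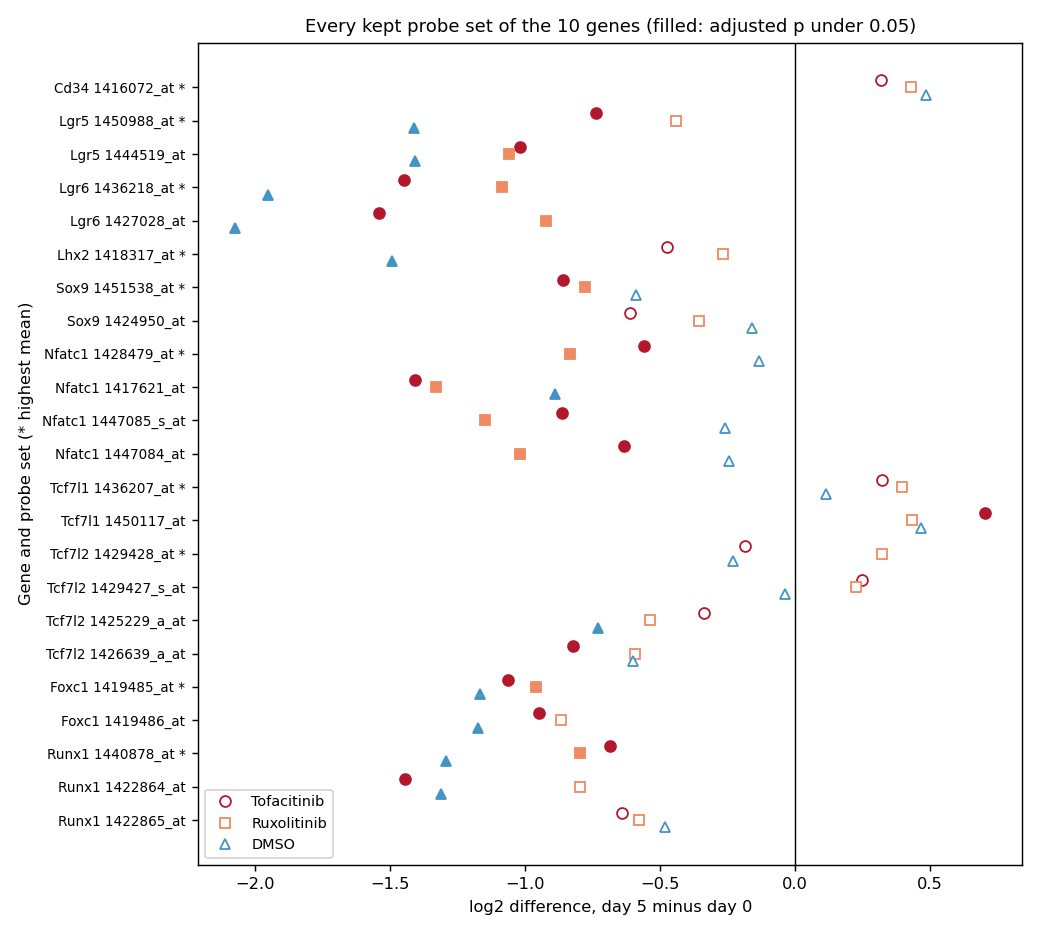
Log2 difference from day 0 in each of the 23 kept probe sets of the 10 genes, with tofacitinib, ruxolitinib and DMSO; an asterisk marks the probe set used in the text, and filled symbols passed at an adjusted p under 0.05 over all kept probe sets. The 4 probe sets of Nfatc1 are filled for both inhibitors, while those of Sox9, Runx1 and Tcf7l2 differ among themselves.

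Within the 7 mice biopsied on both days, Lgr6, Foxc1, Sox9 and Nfatc1 were lower at day 5 in 7 of 7. Lgr5, Lhx2 and Runx1 were lower in 6 of 7, the exceptions being ruxolitinib mouse 6 for Lgr5 (0.05) and tofacitinib mouse 9 for Lhx2 (0.10) and Runx1 (0.07). Tcf7l1 was higher in 7 of 7 by 0.11 to 0.61, and Cd34 in 6 of 7. Tcf7l2 was higher in 4 and lower in 3. How many of all tested genes moved the same way in all 7 mice was not counted. This agreement therefore cannot be called particular to the 10 genes. The size of the change varied between mice of 1 group. Foxc1 changed by -1.61 and -0.49 in the DMSO mice 2 and 3, and by -1.47 and -0.22 in the ruxolitinib mice 4 and 6. Under a fixed mouse block, 3 of the 10 genes still fell with tofacitinib (Lgr6, Nfatc1 and Foxc1), 1 with ruxolitinib (Nfatc1) and 3 with DMSO (Lgr5, Lgr6 and Runx1). Under that block 20.7%, 6.93% and 17.7% of all tested genes fell with tofacitinib, ruxolitinib and DMSO. The counts of the 10 genes thus lie near these shares or little above them. The DMSO count includes Lgr5, which was kept through its day-0 values alone.

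**Figure D4:**
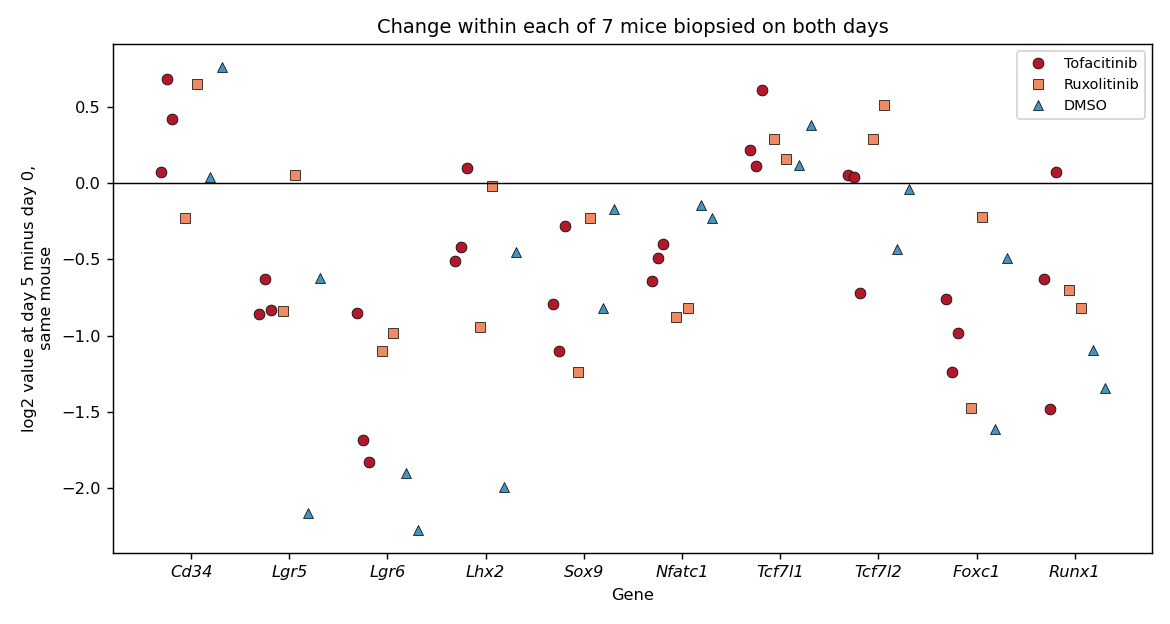
Change of each gene between the 2 biopsies of the same mouse (log2 value at day 5 minus day 0) in the 3 tofacitinib, 2 ruxolitinib and 2 DMSO mice. All 7 mice lie below 0 for Lgr6 (-2.27 to -0.85), Sox9, Nfatc1 and Foxc1, and all lie above 0 for Tcf7l1 (0.11 to 0.61).

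The inhibitors were compared with DMSO at day 5 to see whether the 10 genes differed between treated skin and vehicle-treated skin. In the limma fit 0 of 10 passed with tofacitinib, with ruxolitinib or with the mean of both inhibitors, where 0.165%, 0.521% and 0.935% of all tested genes did. At an unadjusted p under 0.05 the counts were 2, 4 and 4 of 10, beside 8.4%, 15.7% and 13.9% of all genes. Nfatc1 was lower by 0.42 ± 0.14 with tofacitinib (adjusted p = 0.323), 0.70 ± 0.16 with ruxolitinib (adjusted p = 0.0582) and 0.56 ± 0.13 with both (adjusted p = 0.0609). All 5 inhibitor arrays lay below both DMSO arrays, as for 7.23% of all tested genes. The ruxolitinib difference passed without tofacitinib mouse 7 (-0.70, adjusted p = 0.0382), without tofacitinib mouse 9 (-0.70, adjusted p = 0.0434) and without the 4 day-0 arrays that stood apart (-0.69, adjusted p = 0.0497). Those arrays belong to neither group of that comparison. The difference stayed near -0.70 when they were left out, while the spread shared by all groups was estimated anew. The difference of both inhibitors passed without tofacitinib mouse 9 (-0.56, adjusted p = 0.0442). With a fixed mouse block 0 of all tested genes passed in these comparisons with DMSO, Nfatc1 included. With only the compared groups in the fit, 0, 3 and 0 genes passed for tofacitinib, ruxolitinib and both inhibitors, and Nfatc1 was not among them.

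Lgr5, Lgr6 and Lhx2 had all 5 inhibitor arrays above both DMSO arrays, as had 8.72% of all tested genes. Since no day-5 array of Lgr5 exceeded 4, its differences between day-5 groups are differences of low signal and lend no support. The differences of both inhibitors from DMSO were 0.82 [0.14, 1.51] for Lgr5, 0.69 [0.22, 1.16] for Lgr6 and 1.11 [0.31, 1.92] for Lhx2 (adjusted p = 0.255, 0.157 and 0.184). With tofacitinib they were 0.67, 0.51 and 1.01, and with ruxolitinib 0.97, 0.87 and 1.21. Without tofacitinib mouse 7, an array outside this comparison, the ruxolitinib difference of Lgr6 passed (0.90, adjusted p = 0.0366). For Cd34, Sox9, Tcf7l1, Tcf7l2, Foxc1 and Runx1 the intervals of all 3 differences held 0, from -0.27 [-0.89, 0.36] for Sox9 with tofacitinib to 0.61 [-0.05, 1.27] for Runx1 with tofacitinib. A miss does not show equal levels.

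**Figure D5:**
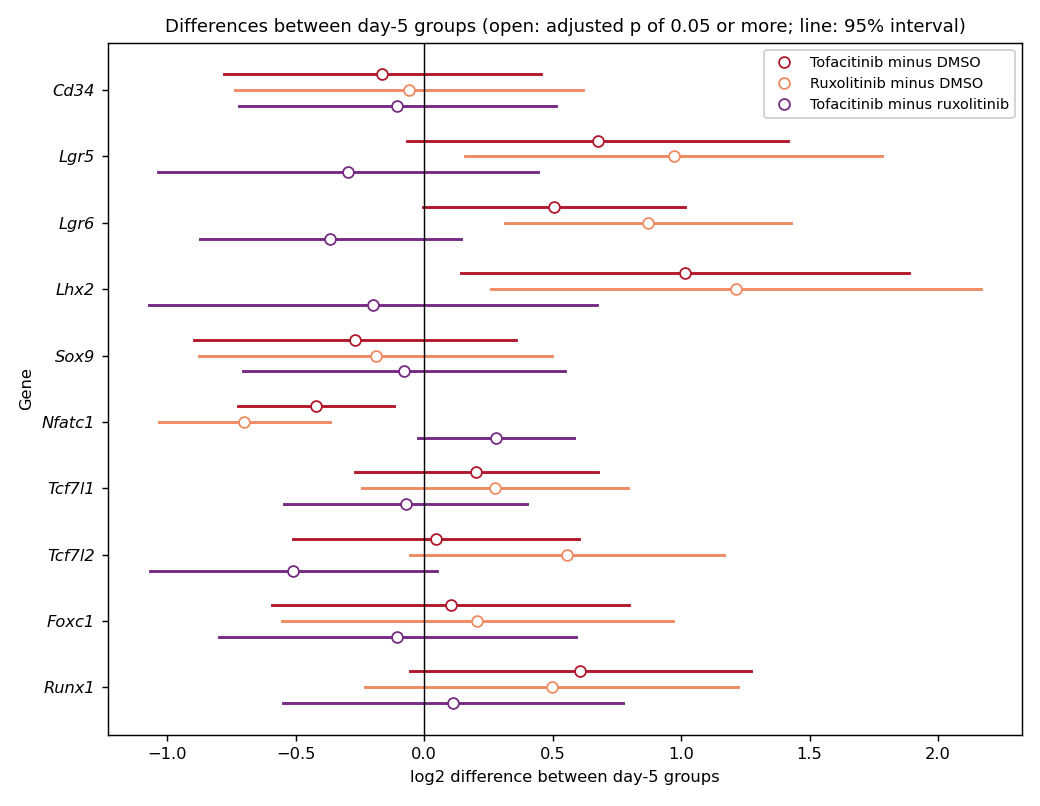
Log2 differences between day-5 groups for each of the 10 genes (tofacitinib minus DMSO, ruxolitinib minus DMSO and tofacitinib minus ruxolitinib), with 95% intervals from the limma fit; every point is open because 0 passed. Lhx2 lies at 1.01 and 1.21 and Nfatc1 at -0.42 and -0.70 for tofacitinib and ruxolitinib against DMSO.

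Tofacitinib and ruxolitinib share a pyrrolopyrimidine core that is joined to different ring systems, and their readouts were compared at the same time of day 5, at doses that no source used here gives. This is the only pair of compounds. In the limma fit 0 of 10 genes passed, 0 at an unadjusted p under 0.05, beside 0.0248% and 5.67% of all tested genes. Nfatc1 was 0.28 [-0.03, 0.58] higher with tofacitinib than with ruxolitinib (adjusted p = 0.896), with all 3 tofacitinib arrays above both ruxolitinib arrays, as for 9.1% of all tested genes. Tcf7l2 differed by -0.51 [-1.07, 0.05] (adjusted p = 0.898), and all 3 tofacitinib arrays were below both ruxolitinib arrays, as for 7.73% of all tested genes. For the other 8 genes the arrays overlapped, and the differences ran from -0.36 [-0.87, 0.14] for Lgr6 to 0.11 [-0.55, 0.78] for Runx1. A miss here does not show that the compounds act alike.

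Other genes that mark the bulge were lower at day 5 more often than higher. These pathway counts stand beside the shares of all tested genes that fell (27.4%, 21.4% and 28.9% with tofacitinib, ruxolitinib and DMSO) and rose (22.7%, 12.5% and 22.2%). Of 16 tested, 8 fell and 1 rose with tofacitinib, 6 fell and 1 rose with ruxolitinib, and 8 fell and 0 rose with DMSO (median -0.62, -0.41 and -0.62). Fgf18, a growth factor that prolongs follicle rest, fell by 2.50, 3.05 and 2.93 with tofacitinib, ruxolitinib and DMSO. Krt15, a keratin of bulge cells, fell by 0.95, 0.96 and 1.36, and Col17a1, a collagen of hemidesmosomes, fell by 1.21, 1.15 and 1.25. Gas1, a growth arrest gene, fell by 0.87, 0.90 and 1.12. Wif1, a secreted Wnt inhibitor named here after its values were seen, was the gene that rose, by 1.07 with tofacitinib and 1.22 with ruxolitinib, with 0.05 for DMSO (adjusted p = 0.919).

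Of 8 tested genes of other follicle compartments, 2 rose in each group and 1, 1 and 4 fell with tofacitinib, ruxolitinib and DMSO. Apart from the 4, these counts lie near or under the shares of all genes. Of the 8, Gata6 exceeded 4 in 2 day-0 arrays and 0 day-5 arrays, and Cdh3 in 9 day-0 arrays and 1 tofacitinib array. Both were kept through day 0 and lend no support to the counts of genes that fell. Fgf7, a growth factor of dermal cells, rose by 1.45, 1.64 and 2.05, and Plet1, a marker of the upper follicle, rose by 0.96, 1.11 and 1.49. With DMSO, Prdm1 (Blimp1), a repressor found in the sebaceous gland, fell by 1.16 and the Hedgehog receptor gene Ptch1 by 0.55. In the inhibitor groups these 2 genes did not pass, with -0.23 and -0.03 for Prdm1 and -0.21 and 0.05 for Ptch1 (tofacitinib and ruxolitinib).

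Among 13 tested paralogs and cofactors of the 10 genes, 3 fell and 1 rose with tofacitinib, 2 fell and 1 rose with ruxolitinib, and 3 fell and 2 rose with DMSO, near or under the shares of all genes. Ldb1, the LIM-domain cofactor that pairs with Lhx factors, fell by 1.11, 1.42 and 1.75 with tofacitinib, ruxolitinib and DMSO. Tle1, a corepressor that TCF and RUNX factors recruit, rose by 1.13, 0.61 and 1.36, but its other kept probe set stood at 0.12 with DMSO. Runx3, a paralog of Runx1, fell by 1.13 with ruxolitinib and 1.14 with DMSO (-0.64 with tofacitinib, adjusted p = 0.0673), and exceeded 4 in all 9 day-0 arrays and 1 day-5 array. Nfatc3, a paralog of Nfatc1, fell by 0.45 with tofacitinib and 0.44 with DMSO (-0.33 with ruxolitinib, adjusted p = 0.0854, and 0.33 there in its other kept probe set).

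In the R-spondin and Wnt pathway, 5 of 11 tested genes fell and 1 rose with tofacitinib, 4 fell and 1 rose with ruxolitinib, and 6 fell and 0 rose with DMSO. Rspo3, a ligand of the Lgr receptors, averaged 3.45, 3.17 and 2.75 with tofacitinib, ruxolitinib and DMSO, against 7.24 at day 0, and fell by 3.80, 4.02 and 4.51. It exceeded 4 in 1 day-5 array and all 9 day-0 arrays, so it was kept through day 0 and the size of its fall is limited by the low signal at day 5. Rnf43, a membrane ubiquitin ligase that removes Wnt receptors and that R-spondins hold back, fell by 1.85, 1.25 and 2.75. Apcdd1, a membrane Wnt inhibitor, fell by 0.62, 0.71 and 1.02, and its other 5 kept probe sets had larger differences. Nkd2, a feedback inhibitor of Wnt signals, fell by 1.32 with DMSO, with -0.40 and -0.57 for tofacitinib and ruxolitinib (adjusted p = 0.114 and 0.0776). The other kept probe set of Nkd2 stood at -0.32, -0.08 and -0.49 with tofacitinib, ruxolitinib and DMSO. Nkd2 averaged 3.86 with DMSO, where only 1 array exceeded 4. Rspo1, another Lgr ligand, named here after its values were seen, averaged 4.09 with tofacitinib, 4.07 with ruxolitinib and 3.29 with DMSO, against 2.95 at day 0. It rose by 1.16 with tofacitinib and 1.06 with ruxolitinib, with 0.34 for DMSO (adjusted p = 0.482), and was kept only because 1 array of each inhibitor group exceeded 4.

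Of 12 genes around Nfatc1 in the BMP and calcineurin pathways, 4 fell and 2 rose with tofacitinib, 4 fell and 1 rose with ruxolitinib, and 6 fell and 2 rose with DMSO. The ligands Bmp4 and Bmp2 fell, Bmp4 by 2.66, 2.36 and 2.24 with tofacitinib, ruxolitinib and DMSO and Bmp2 by 1.13, 1.14 and 1.03. Cdk4, a cell cycle kinase gene that Nfatc1 represses in the bulge, fell by 0.67, 0.50 and 1.22. Ppp3r1, the regulatory subunit of calcineurin, rose by 0.44, 0.51 and 0.60, although its other kept probe set stood at -0.17, 0.33 and -0.08.

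Markers of other cells moved with the day as well. All 10 genes listed as markers of basal and outer root sheath keratinocytes fell with tofacitinib and DMSO. With ruxolitinib 9 of 10 fell, and Krt79 did not pass (-0.23, adjusted p = 0.378). The mean level of this list, Krt79 included, was 10.07 to 10.46 with tofacitinib and 10.10 to 10.37 with ruxolitinib. It was 9.99 to 10.04 with DMSO, against 11.03 to 11.47 at day 0. With that mean as a covariate, 0 of the 10 bulge genes passed with tofacitinib, 1 with ruxolitinib (Nfatc1) and 0 with DMSO. The covariate separates the days completely, so that its part and that of the day cannot be told apart, and over the whole array 70, 260 and 36 genes passed with the covariate, against 6055, 4104 and 6178 without it.

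For the remaining lists, given with tofacitinib, ruxolitinib and DMSO in that order, fibroblast markers rose in 6, 6 and 5 of 11 cases and fell in 0, 1 and 1. Adipocyte markers rose in 2, 1 and 1 of 5, mast cell markers in 5, 5 and 1 of 5 and skeletal muscle markers in 6, 1 and 5 of 10, with 0 falling. Leukocyte markers fell in 5 of 8 in each group. Among them Cd3d and Cd3g exceeded 4 in 9 day-0 arrays and 0 day-5 arrays, so they were kept through day 0 alone. Suprabasal and activated keratinocyte genes rose in 3, 2 and 2 of 8 and fell in 1, 0 and 2. Krt6b among these and the mast cell gene Kit exceeded 4 in 0 day-0 and 0 DMSO arrays, so they were kept through the inhibitor groups alone. Hair matrix and sheath genes rose in 2, 3 and 0 of 6 and fell in 0, 0 and 2. Over all tested genes 22.7%, 12.5% and 22.2% rose and 27.4%, 21.4% and 28.9% fell. The part of the listed cell types in the levels of the 10 genes was not tested. Between the day-5 groups, 3 of the 6 hair matrix genes were higher in the mean of both inhibitors than with DMSO, where 0.935% of all tested genes passed. Hoxc13, a homeobox gene of the hair matrix, was higher by 1.59 ± 0.24 (adjusted p = 0.00823). The growth-phase ligand gene Shh was higher by 3.23 ± 0.66 (adjusted p = 0.0412) and Krt25, an inner root sheath keratin, by 1.84 ± 0.41 (adjusted p = 0.0488). With tofacitinib alone against DMSO, Hoxc13, Shh and Krt25 did not pass (adjusted p = 0.0623, 0.171 and 0.280). With ruxolitinib alone, Hoxc13 and Shh passed (adjusted p = 0.0168 and 0.0453) and Krt25 did not (adjusted p = 0.0521). Shh and Krt25 exceeded 4 in 4 inhibitor arrays and 0 DMSO or day-0 arrays, so they were kept through the inhibitor groups alone. Counts of hair matrix and sheath genes that include Shh and Krt25 therefore lend no support. With a fixed mouse block, with only the compared groups in the fit or without DMSO mouse 2, 0 genes passed for both inhibitors against DMSO, these 3 included.

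The 10 genes also varied within groups. After group means were subtracted over the 16 arrays, which share mice, Sox9 and Foxc1 correlated at r = 0.85, Cd34 and Lgr5 at 0.82 and Lhx2 and Sox9 at 0.81, whereas Lgr6 correlated with none of the other 9 at more than 0.46. Subtracting group means leaves in the split of the day-0 arrays. Across it, Cd34 stood at 9.33 to 9.70 in mice 1, 3, 8 and 9 and at 9.75 to 10.47 in the other 5. The part of this split in the correlations was not tested, and Lgr5 gave low values. The genes most like each member were found by Pearson's r over the 16 arrays, which includes the step between the days. For Lgr6 they were Ppfibp2, Agrn and Lacc1 (r = 0.989, 0.989 and 0.987, and 0.890, 0.857 and 0.878 after group means were subtracted). For Foxc1 they were Zfp217, Fzd1 and Boc (0.947, 0.945 and 0.941), and for Sox9 Calhm5, Fzd2 and Zfp217 (0.933, 0.905 and 0.897), so that Zfp217 appeared for both. Cd34 was most like Adcy5, Mylk and Gask1b (0.962, 0.961 and 0.942), Lgr5 like Armcx1, Fdps and Tgm5 (0.922, 0.914 and 0.905) and Lhx2 like Acsl5, Sardh and Krt79 (0.894, 0.892 and 0.883). For Nfatc1, Rprd1a came first at 0.912 but at 0.245 after group means were subtracted. Runx1 was most like Mettl27 (0.915), Tcf7l2 like Ctdspl2 (0.902) and Tcf7l1 like Kcp (0.858). These correlations are descriptions of these arrays.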

How the data were processed

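Biotin-labelled cDNA of 16 whole-skin RNA samples was hybridised to arrays of 45101 probe sets, per the labels' protocols. The deposited log2 values are GCRMA values that the authors made, per the submitters' processing notes; no source used here gives the GCRMA version or says if the arrays were normalized jointly. Columns were matched to groups by their labels. Probe sets over a log2 value of 4 in 2 or more arrays were kept, and each gene was read from the kept probe set of 1 symbol with the highest mean. Symbols of 34754 of 34958 such probe sets were found by gene ID in RefSeq and 0 differed.

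Group means were fitted with limma 3.58.1 (R 4.3.3) to the 16 arrays with a random block for the mouse (consensus correlation 0.0982, 12 residual and 2.86 prior degrees of freedom), in 7 comparisons with Benjamini-Hochberg adjustment over 12087 genes. The fit was tested on simulated data with independent noise, no mouse effect and the same shifts in every day-5 group. That test therefore did not cover the block or the finding of differences between day-5 groups. Samples with the same number came from the same mouse, per the labels, so the numbers pair the samples; the deviations of the 7 pairs from their group means correlated at -0.183 to 0.178, over 0.1 in 2 pairs. Arrays of 1 group are from separate mice, per the labels.

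Promoter windows are RefSeq's (GRCm38.p6); Lgr5 and Sox9 were not matched, and for Nfatc1 no window was searched here. The 10 genes and all other lists were chosen with earlier results of these data known. Named genes are the 10, up to 4 genes of each pathway list with the smallest p in the DMSO comparison with day 0 or the comparison described, and the 3 genes most correlated with each of the 10. Alternatives were the block as a fixed term, only the groups compared, other filters, probe set rules, scalings and variance priors, each array left out, and, chosen after seeing the data, the 4 day-0 arrays left out and a basal keratinocyte covariate.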

Additional observations from a re-analysis of the deposited data

How the results depend on the processing

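Over 2044 values of the 10 genes under the alternatives, 1908 kept their direction and side of the threshold, 44 no longer passed, 28 newly passed and 64 changed direction. Of those 64, in 30 of the differences, 0 had passed in either setting. With the mouse as a fixed block (the pairing by mouse), 3, 1 and 3 of the 10 genes passed against day 0 with tofacitinib, ruxolitinib and DMSO, in place of 6, 5 and 5, while over all genes 1324 passed with ruxolitinib and 3701 with DMSO, in place of 4104 and 6178. Under the block 0 genes passed between day-5 groups, in place of 20 (tofacitinib and DMSO), 63 (ruxolitinib and DMSO), 113 (both inhibitors and DMSO) and 3 (tofacitinib and ruxolitinib); with only the compared groups in the fit the counts were 0, 3, 0 and 0. Trended and robust variances gave 1 of the 10 genes for ruxolitinib and 1 for both inhibitors against DMSO (0 otherwise), and 32 genes for tofacitinib against DMSO.

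Another 2 alternatives were chosen after seeing the data. Leaving out day 0 of mice 1, 3, 8 and 9, 1 of the 10 genes passed for ruxolitinib against DMSO, and 72, 264, 270 and 1 genes passed in the 4 day-5 comparisons in the order above. With the basal keratinocyte mean as a covariate, 0, 1 and 0 of the 10 passed against day 0 with tofacitinib, ruxolitinib and DMSO (70, 260 and 36 genes), and 35 for tofacitinib and DMSO, 54 for both inhibitors and DMSO and 6 for tofacitinib and ruxolitinib. No filter gave 11 genes for tofacitinib and 71 for both inhibitors against DMSO, and a filter at 6 gave 11 for tofacitinib. The mean of probe sets gave 12, 110 and 5 genes for tofacitinib and DMSO, ruxolitinib and DMSO, and tofacitinib and ruxolitinib, and the most variable probe set gave 151 and 40 for the last 2 pairs. The causes were not tested.

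With each array left out in turn, the 10 genes gave 4 to 6 calls against day 0 with tofacitinib (4 without tofacitinib mouse 8), 3 to 5 with ruxolitinib (3 without either ruxolitinib mouse) and 3 to 6 with DMSO (3 without DMSO mouse 2). Between day-5 groups they gave 0 to 2 for ruxolitinib and DMSO (2 without tofacitinib mouse 7), 0 to 1 for both inhibitors and DMSO (1 without tofacitinib mouse 9), and 0 for tofacitinib with DMSO or ruxolitinib. Over all genes the counts were 3969 to 6426 with tofacitinib (lowest without tofacitinib mouse 9), 1999 to 4470 with ruxolitinib (lowest without ruxolitinib mouse 6) and 3470 to 6487 with DMSO (lowest without DMSO mouse 2) against day 0. In the 4 day-5 comparisons they were 0 to 126, 1 to 259, 0 to 374 and 1 to 9; the first 3 were lowest without DMSO mouse 2 and highest without tofacitinib mouse 9, 7 and 9. Where 1 array was left in a group, it was assumed to vary like the other groups. Groups of 2 or 3 arrays limit every comparison, and low signal limits Lgr5.

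The changes of direction were these, as log2 differences under the alternative. With the fixed mouse block, Tcf7l1 stood at -0.031 for ruxolitinib minus DMSO, and for tofacitinib minus ruxolitinib Cd34, Lhx2, Sox9 and Tcf7l1 stood at 0.18, 0.20, 0.011 and 0.094. With the mean of probe sets, Tcf7l2 stood at -0.15 for ruxolitinib minus day 0, and Tcf7l1 and Runx1 at 0.089 and -0.19 for tofacitinib minus ruxolitinib. With the most variable probe set, Tcf7l2 stood at -0.59 for ruxolitinib minus day 0, Tcf7l1 at -0.028 for ruxolitinib minus DMSO, Tcf7l2 and Runx1 at -0.22 and -0.12 for tofacitinib minus DMSO, and Tcf7l2 at -0.10 for both inhibitors minus DMSO. The same choice gave 0.037, -0.077, 0.26 and -0.64 for Lgr5, Nfatc1, Tcf7l1 and Runx1 in tofacitinib minus ruxolitinib.

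In single other probe sets, tofacitinib minus ruxolitinib was 0.042 for Lgr5 (1444519_at), -0.076 for Nfatc1 (1417621_at), 0.27 for Tcf7l1 (1450117_at), 0.023 and 0.20 for Tcf7l2 (1429427_s_at and 1425229_a_at) and -0.65 and -0.064 for Runx1 (1422864_at and 1422865_at). Tofacitinib minus DMSO was -0.22 for Tcf7l2 (1426639_a_at) and -0.13 and -0.16 for Runx1 (1422864_at and 1422865_at). Ruxolitinib minus DMSO was -0.034 for Tcf7l1 (1450117_at) and -0.095 for Runx1 (1422865_at), and both inhibitors minus DMSO was -0.11 for Tcf7l2 (1426639_a_at) and -0.13 for Runx1 (1422865_at). Against day 0, Tcf7l2 stood at 0.25 with tofacitinib (1429427_s_at) and at -0.54 and -0.59 with ruxolitinib (1425229_a_at and 1426639_a_at).

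Without the 4 day-0 arrays, Tcf7l1 stood at -0.058 for DMSO minus day 0. With the basal covariate, Cd34 stood at -0.80, -0.67 and -0.87 and Tcf7l1 at -0.36, -0.28 and -0.67 with tofacitinib, ruxolitinib and DMSO against day 0, and Cd34 at 0.067, 0.19 and 0.13 for tofacitinib, ruxolitinib and both inhibitors minus DMSO. With 1 array left out at a time, values that crossed 0 ranged, for tofacitinib minus ruxolitinib, from -0.21 to 0.086 for Tcf7l1, -0.22 to 0.049 for Cd34, -0.32 to 0.17 for Sox9, -0.49 to 0.27 for Foxc1 and -0.21 to 0.43 for Runx1. For ruxolitinib minus DMSO they ranged from -0.17 to 0.59 for Foxc1, -0.20 to 0.068 for Cd34 and -0.43 to 0.050 for Sox9. For tofacitinib minus DMSO they ranged from -0.16 to 0.37 for Foxc1 and -0.15 to 0.42 for Tcf7l2, and for both inhibitors minus DMSO from -0.11 to 0.42 for Foxc1. Against day 0 they ranged from -0.38 to 0.18 for Tcf7l2 with tofacitinib and from -0.043 to 0.25 for Tcf7l1 with DMSO. The causes of these changes of direction were not tested.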
